A study of Drosophila melanogaster with 4 samples.

Results

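The regions described here are those enriched for histone H4 acetylated on lysine 16 (H4K16ac) on 2L, the left arm of chromosome 2 of Drosophila melanogaster. They were taken by position alone, as every deposited region assigned to 2L. They number 394 of 3397 regions in ChIP replicate 1, 177 of 2202 in ChIP replicate 2 and 859 of 6550 in the authors' combined list. The samples were 2 ChIP replicates and 2 inputs (chromatin sequenced without immunoprecipitation) from wild-type Oregon-R embryos of 14 to 16 h, fixed with formaldehyde, and the antibody is named H4K16ac(M). Whole embryos were used, so many tissues are mixed, and their sex is not stated in the labels. Each replicate list had the input of the same number as control, per the labels. Whether each replicate had its own collection of embryos is not stated, and any SD given below may be purely technical.

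H4K16ac opens chromatin by weakening the contacts between neighbouring nucleosomes. In flies it is placed by the acetyltransferase MOF, which works in a pair of complexes. In the male-specific lethal (MSL) complex MOF coats the bodies of active genes on the male X for dosage compensation, and in the non-specific lethal (NSL) complex it acts mainly at promoters of widely expressed genes on every chromosome. An autosomal arm such as 2L is not a target of dosage compensation.

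On 2L the mark appeared as many short, scattered regions. Regions covered 3.38% of the arm in replicate 1 and 1.32% in replicate 2, a mean of 2.35% ± 1.45 (SD, n = 2). Bases in both replicates made up 0.910% of the arm, or 209.4 kb of its 23011544 bp, and the combined list covered 6.74%. The arm is 13.6% of all sequence named in the file headers. It held 11.6% of the regions and 6.92% of the covered bases in replicate 1, and 8.04% of the regions and 4.40% of the covered bases in replicate 2. Read depth is unknown, because the files give regions and no read counts, so a stretch without a region is one where none was reported and not one shown to lack the mark.

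2L was covered about as much as 3L, less than 3R and far less than X. In replicate 1 the values were 3.38% on 2L, 3.41% on 3L, 4.09% on 3R and 32.1% on X. In replicate 2 they were 1.32% on 2L, 1.38% on 3L, 1.65% on 3R and 23.6% on X. Replicate 1 lay above replicate 2 on every one of these arms, and the arms kept the same order in both. The ratio of 2L to 3L averaged 0.974 ± 0.0232 (SD, n = 2), that of 2L to 3R 0.815 ± 0.0163 (SD, n = 2) and that of 2L to X 0.0806 ± 0.0348 (SD, n = 2). In the combined list the ratio of 2L to 3L was 1.01, so the order of these 2 arms turned there. The range of 2L overlapped those of 3L and 3R and lay wholly below that of X. With 2 values on each arm, the two-sided exact permutation test gave p = 0.333 against X, the smallest it can give, and p = 0.667 against 3L and against 3R, so no comparison between arms could pass 0.05. All 3 were 0.667 after Benjamini-Hochberg adjustment. The test takes the 4 values as independent, although the same 2 libraries gave the values of every arm. Within each library 2L was below 3L, 3R and X.

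**Figure D1:**
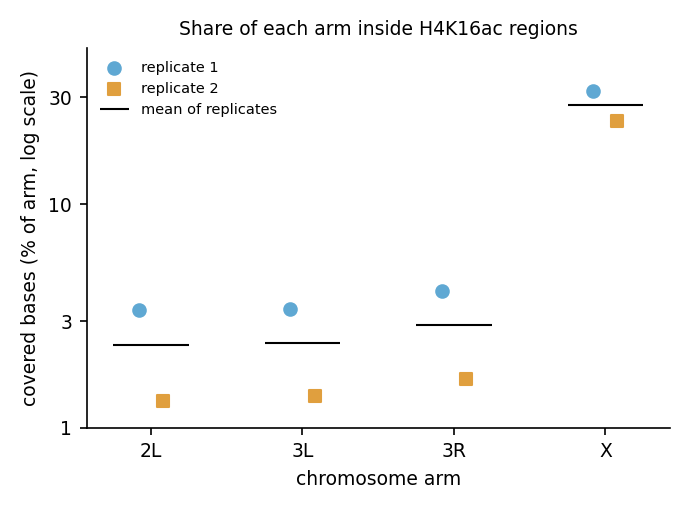
Percent of the bases of each arm inside deposited regions (y axis, log scale) for 2L, 3L, 3R and X (x axis), with a circle for replicate 1, a square for replicate 2 and a line for their mean. 2L sits at 3.38% and 1.32%, next to 3L and 3R, while X sits at 32.1% and 23.6%.

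Regions occurred along the whole arm. The most distal ones, nearest the telomere at coordinate 1, began 21.0 kb from the end in replicate 1 and 21.2 kb from it in replicate 2, and the first combined region began at 14552. At the centromere-proximal end the last regions ended 41.8 kb and 42.5 kb before the end of the assembled arm, and the last combined region 35.8 kb before it. In the lists of both replicates and the combined list, each of the 23 full 1-Mb windows held at least 2 regions.

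Density swung between neighbouring windows rather than following one slope along the arm. The number of combined regions per window ran from 13 to 59 around a median of 36. Numbering windows from the distal end, the counts were high in the first (59), the seventh (55), the eleventh (58) and the twentieth (56), and low in the eighth (21), the twelfth (19), the fifteenth (18) and the eighteenth (13). Spearman's rho between window order and covered percent was -0.17 in replicate 1 and -0.09 in replicate 2 over 23 windows. These are descriptions of windows on a single arm and carry no p.

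For bases in both replicates, the densest windows were 2 to 3 Mb (2.21%), 0 to 1 Mb (1.86%) and 8 to 9 Mb (1.69%). The window from 22 to 23 Mb, the most proximal one, followed at 1.67%. The sparsest were 7 to 8 Mb, where the replicates shared no base, 15 to 16 Mb (0.133%) and 14 to 15 Mb (0.197%). The 7 to 8 Mb window held 5 regions of replicate 1 and 2 of replicate 2, none of which touched each other. It lay between windows of 1.60% and 1.69%, both among the 5 densest of the arm.

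**Figure D2:**
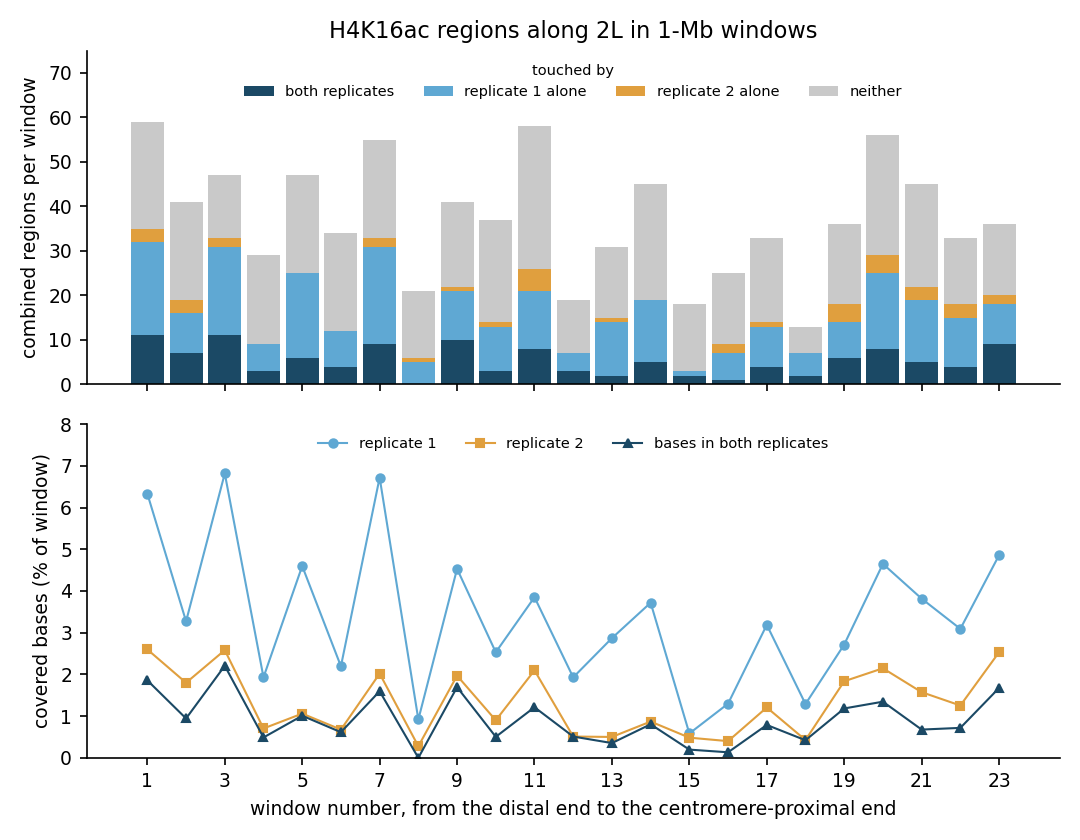
Upper panel, number of combined-list regions in each 1-Mb window of 2L (y axis) by the replicates that touch them; lower panel, percent of the window covered in replicate 1, in replicate 2 and by bases in both. The x axis numbers the windows from the distal end, and the eighth window (7 to 8 Mb), with no shared base, stands between the seventh and the ninth.

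Split into 3 equal segments, the arm was densest at its distal end. From distal to proximal, coverage was 4.26%, 2.78% and 3.10% in replicate 1, and 1.51%, 1.01% and 1.45% in replicate 2. Combined regions numbered 42.6, 35.1 and 34.3 per Mb. The middle segment was the lowest in both replicates. Proximal minus distal coverage was -1.16 percentage points in replicate 1 and -0.0616 points in replicate 2, with a mean of -0.609 ± 0.775 (SD, n = 2). The spread between replicates exceeds this difference, which rests on replicate 1.

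The replicates ranked the windows of 2L alike although they differed in amount. Replicate 1 was higher in all 23 windows. Spearman's rho of covered percent between replicates was 0.895 over the 23 windows of 2L, against 0.759 over 24 windows of 3L, 0.848 over 27 of 3R and 0.974 over 22 of X, as a description without p. Windows of one arm share libraries, mappability and gene content, none of which was tested here.

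Region by region, agreement was partial and depended on the direction. Of the 177 replicate 2 regions on 2L, 126 (71.2%, 95% Wilson interval 64.1 to 77.4, counting error only) touched a replicate 1 region by at least 1 base. Over all sequence, where most replicate 2 regions are on X, the share was 82.7%. Of the 394 replicate 1 regions on 2L, 123 (31.2%, 26.8 to 36.0) touched replicate 2, against 43.6% over all sequence. Both shares on 2L were below those over all sequence. For replicate 2 regions the shares were 71.2% on 2L, 73.1% on 3L, 79.8% on 3R and 87.8% on X. For replicate 1 regions they were 31.2% on 2L, 34.0% on 3L, 34.3% on 3R and 58.2% on X.

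Counted in bases, 68.8% of replicate 2 and 26.9% of replicate 1 lay in the other replicate on 2L. The Jaccard index, the bases common to the lists divided by their union, was 0.240 on 2L, 0.263 on 3L, 0.282 on 3R and 0.629 on X. 2L was the lowest of these arms in each of the region and base shares named here. A sparser arm also overlaps less by chance, and whether the autosomal arms differ was not tested.

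The 51 replicate 2 regions that missed replicate 1 scored about as high as the others. The authors' score, a single number per region with no stated unit, had a median of 0.701 among them and 0.698 among the 126 that touched replicate 1. They were narrower, with a median width of 1439 bp against 1818 bp. In replicate 1 score and width both moved with support. The 271 regions that missed replicate 2 had a median score of 0.547 and a median width of 1685 bp, and the 123 that touched it 0.622 and 2113 bp. Missed regions of replicate 2 often lay near the other list. Their median distance to the closest replicate 1 region was 6.71 kb, and 30 of 51 (58.8%) were within 10 kb. For missed regions of replicate 1 the median distance to replicate 2 was 28.6 kb, and 85 of 271 (31.4%) were within 10 kb. Replicate 1 has over 2 regions for each of replicate 2 on the arm, which by itself brings replicate 1 regions nearer, and its part in this gap was not tested.

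Where regions of the replicate lists overlapped, their midpoints were close. Overlapping regions formed 128 pairs on 2L, with a median distance between midpoints of 179.5 bp. Pairing required overlap, so the widths of the regions bound this distance. It was 142.5 bp on 3L, 142 bp on 3R and 1478.5 bp on X. On 2L the replicate 1 region was the wider one in 102 pairs and the replicate 2 region in 26. In 64 pairs of 2L the replicate 2 region lay wholly inside its partner. Their scores had a low rank correlation. Spearman's rho was 0.23 across the 128 pairs of 2L, 0.30 across 147 of 3L, 0.34 across 205 of 3R and 0.55 across 1237 of X. Pairs were regions reported in both lists, so regions missing from either list are not in these values, which carry no p.

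The combined list added many regions that neither replicate list contains. Of its 859 regions on 2L, 123 (14.3%, 95% Wilson interval 12.1 to 16.8) touched both replicates, against 19.3% over all sequence. Another 254 touched replicate 1 alone, 38 replicate 2 alone, and 444 (51.7%, 48.3 to 55.0) neither. The share touching neither was 51.4% on 3L, 49.4% on 3R and 47.9% on X, so it is not particular to 2L. In bases, 46.9% of the combined list on 2L lay outside both replicates and 13.5% inside both.

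Width separated these classes more than score did. Median width was 2611 bp for regions touching both replicates, 1918 bp for replicate 1 alone, 1798 bp for replicate 2 alone and 1233 bp for neither. No replicate region anywhere was narrower than 1301 bp, whereas 282 combined regions on 2L were. Of these 282, 23 touched a replicate and 0 touched both, which allows a share of up to 1.06% (3 counts of the total). Among regions from that width up to 2 kb 4.49% touched both replicates, among those of 2 to 3 kb 38.3%, and among those of 3 kb or more 60.3%, or 41 of 68. All 68 of the widest touched at least 1 replicate. Touching asks for 1 base only, so a wider region has more bases with which to meet a replicate region. How much of the rise with width follows from this rule was not tested.

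At 2 to 3 kb the share touching both replicates was 38.3% on 2L (95% Wilson interval 31.4 to 45.7), 47.9% on 3L (41.0 to 54.9), 46.8% on 3R (40.9 to 52.8) and 20.2% on X. The intervals of 2L, 3L and 3R overlapped one another and lay above that of X. At 3 kb or more it was 60.3% on 2L (48.4 to 71.1), 45.3% on 3L (33.7 to 57.4), 64.1% on 3R (53.0 to 73.9) and 81.0% on X (77.9 to 83.9). In that band the intervals of 2L, 3L and 3R lay below that of X. On 2L, 7.92% of combined regions were 3 kb or wider, against 7.06% on 3L, 6.56% on 3R and 29.7% on X. These intervals cover counting error and no replicate spread.

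**Figure D3:**
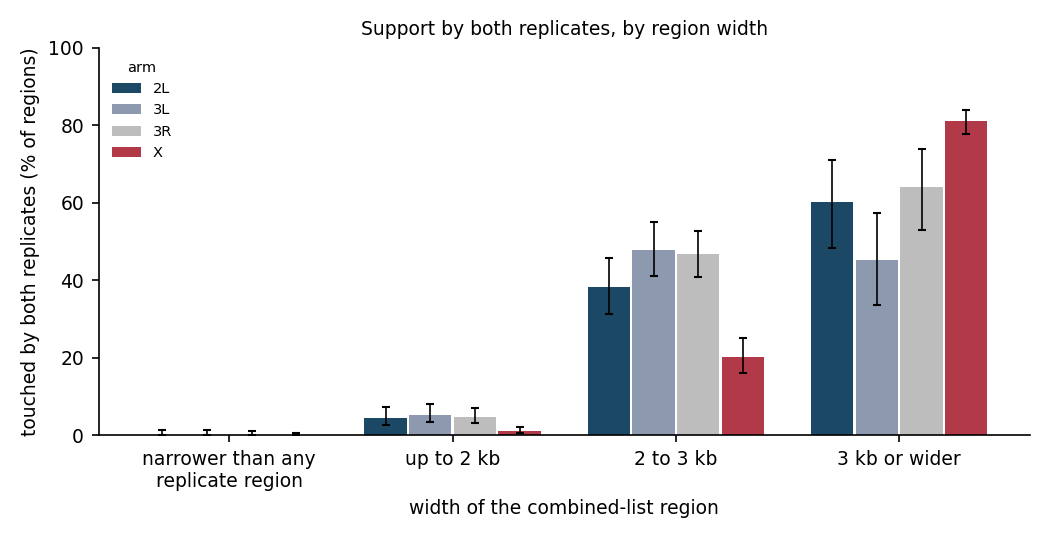
Percent of combined-list regions touched by both replicates (y axis) in 4 bands of region width (x axis) on 2L, 3L, 3R and X, with 95% Wilson intervals for counting error. On 2L the share is 0 for regions narrower than any replicate region, 38.3% at 2 to 3 kb and 60.3% at 3 kb or wider.

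Regions of 2L were short throughout. The median width was 1858 bp in replicate 1 (quartiles 1504 and 2136) and 1678 bp in replicate 2 (1425 and 1948), and the widest measured 5074 bp and 2814 bp. Replicate 1 had 32 regions of 3 kb or more on 2L and replicate 2 had 0, out of 177. On X 44.2% of replicate 1 regions and 44.8% of replicate 2 regions were that wide. Of replicate 1 regions 8.12% were that wide on 2L, 6.37% on 3L and 5.68% on 3R. Of replicate 2 regions 1.02% were on 3L and 2.77% on 3R. Median widths on 3L were 1891 bp and 1679 bp, and on 3R 1859 bp and 1751 bp, in replicates 1 and 2.

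The 5 widest shared stretches each joined one region of either replicate. The widest, 2.74 kb, ran from 2L 22960171 to 22962911, close to the proximal end, and scored 0.622 in replicate 1 and 0.828 in replicate 2. The next ran from 869750 to 872310 (2.56 kb) and was also among the 5 highest scored of replicate 2, at 0.958. The one from 2146067 to 2148615 (2.55 kb) was the fifth highest scored of replicate 1, at 0.972, but at percentile 16.1 of replicate 2. The other two ran from 4849678 to 4852016 (2.34 kb) and from 17479796 to 17482082 (2.29 kb). In the combined list all 5 scored at percentile 85.7 or above. Coordinates are in FlyBase release 5, counting from 1, and the genes there are not analysed here.

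Scores on 2L were close to those of 3L and 3R and low for the series. In replicate 1 the 2L median was 0.567, in replicate 2 it was 0.698, and the combined list had 0.454. On 3L the medians were 0.578, 0.698 and 0.457, and on 3R 0.566, 0.699 and 0.452. X had medians of 0.771 and 0.969 in replicates 1 and 2. In replicate 1, 26 of 394 regions on 2L scored above the X median, and in replicate 2, 4 of 177.

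The strongest regions differed between replicates. In replicate 1 the region from 10003508 to 10005763 scored 1.24, at percentile 97.9 of the list. The next scored 1.03 from 11812451 to 11814586, 1.00 from 14358486 to 14360741 and 0.990 from 21827913 to 21830027. All 5 leading regions of replicate 1 touched a region of replicate 2, at percentiles 16.1 to 41.2 of that whole list. The median 2L region of replicate 2 was at percentile 21.7, and only the partner of the fifth leading region was below it. In replicate 2 the leading scores were 1.02 from 22406879 to 22408234, 1.01 from 14491475 to 14492826 and 0.993 from 21101811 to 21104117. Of the 5 leading regions of replicate 2, the first, the second and the fourth (from 1031069 to 1032441, 0.970) touched no replicate 1 region. The second began just past a replicate 1 region ending at 14491413, and the combined region from 14489368 to 14492712 touched both of these. The first and the fourth were absent from the combined list as well.

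In the combined list the highest scores belonged to regions without support. On 2L, 3L, 3R and X alike, the highest scored region touched neither replicate, at 3.51, 3.51, 2.58 and 3.88. The 8 highest scored regions of 2L touched neither replicate. Of these 8, 6 were narrow, at 1001 to 1065 bp, and the other two measured 1709 and 1779 bp, above the list's 2L median of 1607 bp. The first 5 were those from 12894474 to 12895474 (3.51), 5173384 to 5174384 (2.44), 22385456 to 22386468 (2.19), 10862816 to 10863816 (1.79) and 22837956 to 22839664 (1.49). The first, the second and the fourth measured exactly 1001 bp, the least width in that list. The ninth, from 10003564 to 10005756 at 1.07, matched the strongest region of replicate 1. By the median, regions with support scored higher. Median score was 0.559 for regions touching both replicates and 0.451 for those touching neither, a difference of 0.11. Of the 215 regions with the highest scores 38.6% touched both replicates, and of the 215 with the lowest 2.79%. The share touching at least 1 replicate had no such order. In 4 equal groups from the lowest to the highest scores it was 49.8%, 43.5%, 37.2% and 62.8%.

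The relation of width and score differed in sign between the regions touching replicate 1 and those touching neither replicate. Spearman's rho between them was 0.31 among the 123 regions touching both replicates, 0.52 among the 254 touching replicate 1 alone, 0.06 among the 38 touching replicate 2 alone and -0.57 among the 444 touching neither. Over all 859 it was 0.07. In the replicate lists it was 0.62 and 0.31. Widths and scores come from the same reads and calls, so these are descriptions and carry no p.

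**Figure D4:**
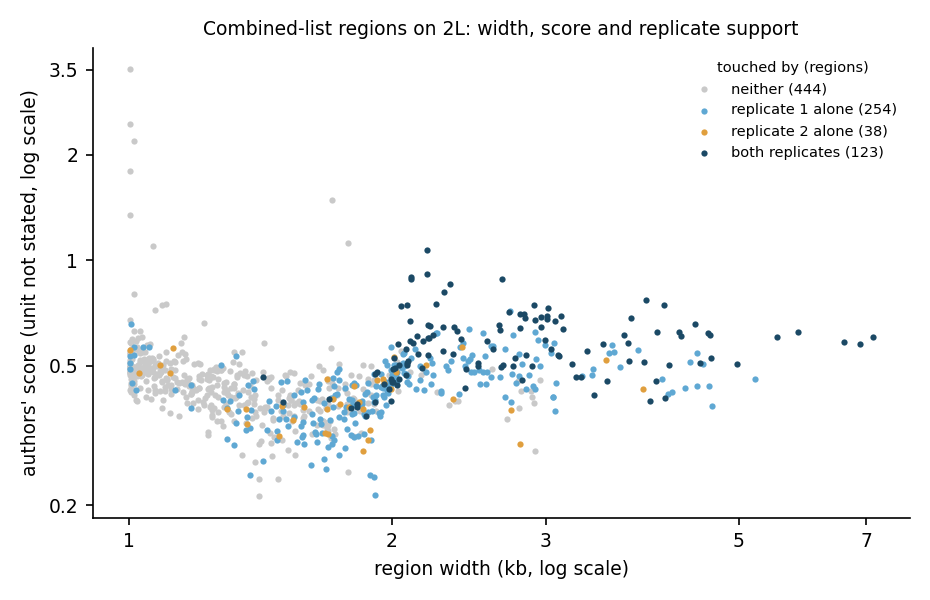
Width (x axis, kb, log scale) and authors' score (y axis, log scale, unit not stated) of the 859 combined-list regions on 2L, coloured by the replicates that touch them. Unsupported regions crowd the narrow end and include the 8 highest scores, while regions touching both replicates are mostly wider than 2 kb.

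Part of the regions of 2L lay in small clusters. A cluster is taken here as at least 4 combined regions with at most 10 kb between neighbours. There were 59 on 2L, which held 327 of the 859 regions (38.1%) on 6.35% of the arm, with a median of 5 regions each. A share of regions above the share of the arm follows in part from this definition. It was not tested against random placement. On 3L 38.9% of regions and on 3R 47.0% were in such clusters, and on X 88.2%. By the same rule replicate 1 had 16 clusters with 76 regions and replicate 2 had 1 cluster with 5 regions. Of the 59 clusters, 56 held a region touching a replicate and 39 a region touching both. Over all 859 combined regions of 2L, 48.3% touched a replicate and 14.3% both. These are shares of single regions and no baseline for the counts of clusters, because each cluster holds at least 4 regions. Clusters holding a region touching a replicate were 66 of 69 on 3L, 98 of 99 on 3R and 119 of 129 on X. Those holding a region touching both were 40 on 3L, 66 on 3R and 104 on X. Inside clusters of 2L 17.7% of regions (95% Wilson interval 14.0 to 22.2) touched both replicates, and outside them 12.2% (9.70 to 15.3). The intervals overlap. Median widths were 1713 bp inside and 1505 bp outside, and median scores 0.453 and 0.454.

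The largest cluster, from 10356054 to 10415242, held 11 regions in 59.2 kb. None of the 11 touched both replicates, 3 touched replicate 1 alone and 2 replicate 2 alone. A cluster of 10 regions ran from 4944390 to 4981636 (37.2 kb), with 54.9% of its bases covered and 2 regions touching both replicates. Another 10 lay from 9916952 to 9967974 (51.0 kb), again with 2 touching both. There were 4 clusters of 9 regions. The most distal ran from 6944078 to 6971958 (27.9 kb, 60.6% covered) and the next from 13782326 to 13834156 (51.8 kb). Another spanned 38.3 kb from 16706376 to 16744650. The most proximal spanned 32.1 kb, beginning at 19523904 and ending at 19556036, and held 7 regions touching neither replicate and 0 touching both. The one from 6944078 ended just before the sparse 7 to 8 Mb window and held 5 regions touching replicate 1 alone and 1 touching both.

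Between the clusters lay long stretches without regions. In the combined list 46 stretches of at least 100 kb held 31.4% of 2L, against 28.2% of 3L, 27.3% of 3R and 2.43% of X. In replicate 1, 68 such stretches held 64.7% of 2L and in replicate 2, 59 held 85.2%. Median gaps on 2L were 19.4 kb and 38.8 kb in replicates 1 and 2, and 8.82 kb between combined regions. Cut into 100-kb windows, 85 of 230 had no region of replicate 1, 141 none of replicate 2 and 26 none of the combined list.

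The longest stretch free of combined regions ran from 16993429 to 17409865 (416.4 kb) and had no region of either replicate. The next were from 7522301 to 7799569 (277.3 kb), 9166779 to 9430813 (264.0 kb), 17724017 to 17962805 (238.8 kb) and 4557455 to 4793291 (235.8 kb). The one from 9166779 held 1 region of replicate 2, which is outside the combined list. Into the distal edge of the one from 17724017 reached a replicate 1 region (17722847 to 17724223), which overlaps the combined region ending at 17724016. The longest combined-list stretch measured 259.5 kb on 3L and 293.3 kb on 3R.

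Without the combined list, the longest stretch free of both replicates ran from 11278901 to 11812450 (533.6 kb) and held 5 combined regions. Others were from 14492827 to 15005098 (512.3 kb), 15287136 to 15763831 (476.7 kb), 16942740 to 17409963 (467.2 kb) and 13904832 to 14340615 (435.8 kb). All 5 lay between 11 and 18 Mb. The longest stretch without a replicate 2 region, from 3540131 to 4838095 (1298 kb), held 17 regions of replicate 1 and 41 combined regions, so it is a gap of a single list.

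**Figure D5:**
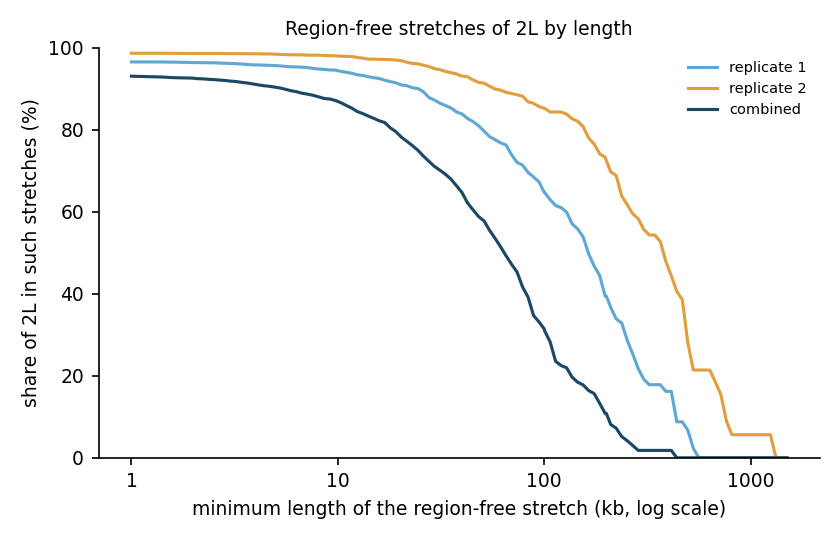
Percent of 2L (y axis) lying in region-free stretches of at least the length on the x axis (kb, log scale) for replicate 1, replicate 2 and the combined list. At 100 kb the shares are 64.7%, 85.2% and 31.4%.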

How the data were processed

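ChIP regions of 2 replicates and the authors' combined list were analysed, and no file of the inputs was used here. The authors' deposited lists give 1 score per region, per the file headers without a unit. The submitters' processing notes name Bowtie 0.12.7. Coordinates are in FlyBase release 5, per the file headers. The sources used here do not say how regions were called or how the combined list was made. Covered bases, gaps and overlaps (at least 1 base) were computed with Python 3.11.15, numpy 2.4.6 and scipy 1.17.1, and the interval code was checked on simulated regions. Arm lengths came from the headers. Full 1-Mb windows and region midpoints gave counts per window. Scores were compared within a list only.

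Regions are named by a fixed rule: the 5 widest shared stretches, the 5 highest scored of each list, the 5 longest empty stretches, the 5 largest clusters with those tied in size, the 3 densest and sparsest windows and the outermost regions. Regions named beyond it (the fourth densest window, the ninth combined score and the stretch without replicate 2) were chosen after their values were seen. The arm and the measures were chosen with earlier results of these data known. Regions and windows are not replicates, so no p was computed over them. Depth is unknown. Gene names were available in release 6 coordinates alone, so regions were not placed at genes and no sequence is shown.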

Additional observations from a re-analysis of the deposited data

How the results depend on the processing

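Of 63 other settings, 32 left their value within the replicate SD, the counting interval or 1.5 times the count, 30 moved further, and 1 changed direction, the ratio to 3L in the combined list. Leaving out a replicate cannot leave the SD of 2 values and is no sign of stability. With a replicate left out, the values are those of the other replicate alone. In the combined list, coverage of 2L was 6.74%, its ratio to X 0.151, to 3L 1.01 and to 3R 0.883, and the proximal minus distal difference -1.70. For bases in both replicates the ratios to X, 3L and 3R were 0.0423, 0.912 and 0.721. For bases in either replicate those to 3L and 3R were 0.999 and 0.847. Keeping the upper 50% of each whole list by score, coverage was 0.653%, the ratios to X, 3L and 3R 0.0227, 0.812 and 0.667, and window rho 0.297. That leaves 111 and 16 regions of 2L in replicates 1 and 2. Window rho was 0.803 in 500-kb and 0.827 in 2-Mb windows. Asking for 50% of both regions, 60.5% of replicate 2 regions were in replicate 1 and 10.5% of combined regions in both, and 10.5% also at 50% of the combined region alone. Keeping the upper 50% of the 2L regions of each list by score, support was 52.2% for replicate 2, 23.4% for replicate 1 and 10.9% for the combined list, the mean of median widths 1990 bp instead of 1768 bp, and clusters numbered 12. The score difference between supported and unsupported regions was 0.132 at 50% overlap and 0.158 without regions narrower than any replicate region. Empty stretches numbered 131 from 50 kb and 10 from 200 kb. Clusters numbered 35 at gaps up to 5 kb and 107 with at least 3 regions. No paired analysis was possible because no file gives values for the inputs that share the replicates' numbers. The cause of these changes was not tested beyond the numbers of regions that each setting keeps.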

Other observations

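Within their own list the strongest replicate regions of 2L had no close neighbour. This comparison was chosen after the values were seen and has no test. Each of the 5 highest scored regions of replicate 1 and of replicate 2 was more than 10 kb from its neighbours in the same list. This does not carry over to the combined list for 4 of the 10, which lay in clusters there, those from 10003508, 14358486, 21101811 and 869750. Over all combined regions of 2L, 38.1% lay in clusters. A cluster needs at least 4 regions, which is a stricter rule than a neighbour within 10 kb. The region from 11812451 to 11814586 (score 1.03 in replicate 1) had 533.6 kb without a replicate 1 region on its distal side and 177.5 kb on its proximal side. The replicate 2 region from 14491475 to 14492826 (score 1.01) had 131.0 kb and 777.9 kb without a replicate 2 region. It was not isolated from the other lists. A replicate 1 region ended just distal of it, at 14491413, and its 777.9 kb side held 6 replicate 1 and 19 combined regions. Over the whole arm, isolated and other regions had close median scores. In replicate 1 the median was 0.569 for 159 regions with no neighbour within 10 kb and 0.564 for the 235 others, and in replicate 2 it was 0.698 for 104 regions and 0.698 for the 73 others. Values were as close on 3L, at 0.572 and 0.582 in replicate 1 and 0.702 and 0.694 in replicate 2, and on 3R, at 0.563 and 0.570 in replicate 1 and 0.696 and 0.706 in replicate 2. On X the isolated regions scored lower, at 0.664 for 120 regions against 0.785 for 1264 others in replicate 1, and 0.887 for 106 against 0.975 for 1184 others in replicate 2.

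Some replicate regions of 2L are missing from the combined list, 5 of 394 in replicate 1 and 12 of 177 in replicate 2. This is not particular to 2L. In replicates 1 and 2, 16 of 424 and 14 of 197 were missing on 3L. On 3R 11 of 581 and 10 of 253 were missing, and on X 13 of 1384 and 22 of 1290. On 2L the 5 had a median score of 0.543, against 0.567 for the 389 that touched the combined list, and a median width of 1355 bp against 1864 bp. The 12 had a median score of 0.779, against 0.694 for the 165 that touched it, and a median width of 1368 bp against 1741 bp. The missing regions were thus narrower in both lists, while the scores differed in opposite directions. All 859 combined regions of 2L start and end at even coordinates, whereas 48.7% of replicate 1 regions and 54.2% of replicate 2 regions start at one.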
